A study of Drosophila melanogaster with 2 samples.

Results

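CG1677, Tlk, tara, NFAT, Svil and sbb are 6 Drosophila melanogaster genes that were chosen by the number of binding peaks of the forkhead protein CHES-1-like inside them, each holding 8 or more. They are 6 of 13968 protein-coding genes, and of 12 genes, 0.0859% of all, that reached that number. The peaks come from chromatin immunoprecipitation and sequencing (ChIP-seq) on whole embryos of mixed sex, aged 0 to 24 h. The embryos carried a stable transgene for CHES-1-like with GFP at its C terminus (strain CHES-1-like-GFP), and an antibody against GFP was used on chromatin sonicated to 200 to 800 bp. There is 1 group with biological replicates 2 and 3, and no other genotype, treatment or age. Whole embryos mix all tissues and stages, so a peak cannot be assigned to a cell type or time.

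Forkhead proteins bind DNA through a winged-helix domain, and CHES-1-like is the fly relative of the vertebrate FOXN2 and FOXN3 proteins. Long introns in flies often hold enhancers, alternative transcription start sites (TSSs) and whole other genes, so a peak inside a gene is not a peak of that gene alone. Among the 6 genes, Tlk encodes the Tousled-like kinase, which phosphorylates the histone chaperone Asf1. The gene tara (taranis) encodes a nuclear protein that interacts genetically with Polycomb and trithorax group genes. NFAT encodes the fly member of a family of Rel-domain transcription factors, Svil the relative of the vertebrate actin-binding protein supervillin, and sbb (scribbler, also called brakeless) a nuclear corepressor.

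A thresholded peak is 1 of the 4599 entries that passed the authors' irreproducible discovery rate step, and its summit is its highest position. The pooled list, called on both replicates together, held 30000 entries described as peaks and background, and the thresholded entries were its 4599 strongest by the authors' signal value. That value is on the scale of its own list, carries no replicate error and is used here to describe and rank peaks within a list. Rank 1 is the strongest. The number of reads behind each peak is unknown. The replicate lists entered the thresholded list, so a match between them is not independent evidence for a peak. All positions are on the dm6 assembly.

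The sequences under the summits are shown for each gene on arms X, 3L and 3R. The peak shown is the strongest intronic one over 500 bp from any protein-coding TSS. In CG1677 this leaves out a stronger peak 257 bp from the TSS of the nested gene CBP. The windows run 100 bp to each side of the summit, on the plus strand of the Release 6 reference from RefSeq, and lie outside every annotated exon. They are chrX:7336243-7336443 for CG1677, chrX:3742136-3742336 for Tlk, chr3R:16236955-16237155 for tara, chrX:13640415-13640615 for NFAT and chr3L:2467467-2467667 for Svil. Capitals mark matches, on either strand, to a forkhead site (AAACA preceded by a purine and then a pyrimidine), to a GATA site (GATA between A or T before it and A or G after it) or to the GAGA site (GAGAG). None of these 5 strongest windows held a forkhead match, 4 held a GATA match, and those of Tlk and tara also held GAGAG. Over all 1161 such intronic thresholded summits, 33.4% of windows held a forkhead match, 39.9% a GATA match and 28.2% GAGAG. With 5 windows, nothing is read from the difference.
CG1677 intronic: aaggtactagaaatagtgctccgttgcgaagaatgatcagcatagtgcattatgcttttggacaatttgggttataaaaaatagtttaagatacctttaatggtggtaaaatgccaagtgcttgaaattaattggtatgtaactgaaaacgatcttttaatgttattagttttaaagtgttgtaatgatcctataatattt
Tlk intronic: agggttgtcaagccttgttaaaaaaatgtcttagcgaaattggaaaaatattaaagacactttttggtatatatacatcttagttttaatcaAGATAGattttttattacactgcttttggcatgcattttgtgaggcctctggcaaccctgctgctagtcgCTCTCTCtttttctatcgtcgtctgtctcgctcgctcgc
tara intronic: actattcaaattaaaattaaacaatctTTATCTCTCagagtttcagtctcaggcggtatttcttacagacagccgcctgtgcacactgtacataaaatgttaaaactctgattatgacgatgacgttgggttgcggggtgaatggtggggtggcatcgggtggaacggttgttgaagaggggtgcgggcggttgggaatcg
NFAT intronic: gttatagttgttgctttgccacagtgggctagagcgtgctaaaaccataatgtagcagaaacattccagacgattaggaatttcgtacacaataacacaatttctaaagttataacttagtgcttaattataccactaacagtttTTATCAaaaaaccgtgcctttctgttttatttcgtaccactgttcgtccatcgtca
Svil intronic: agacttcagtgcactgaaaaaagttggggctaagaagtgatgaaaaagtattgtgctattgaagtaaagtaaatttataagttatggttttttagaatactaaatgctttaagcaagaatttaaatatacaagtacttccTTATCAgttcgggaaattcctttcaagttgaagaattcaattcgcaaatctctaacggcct

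The strongest intronic window that did hold a forkhead match is shown for the same genes, with the same capitals. These windows are chrX:7332652-7332852 for CG1677 (signal 219), chrX:3774376-3774576 for Tlk (signal 279), chr3R:16231935-16232135 for tara (signal 150), chrX:13641143-13641343 for NFAT (signal 407) and chr3L:2418958-2419158 for Svil (signal 101). The match began 12 bp from the summit in Tlk and farther away in the others, at 60 bp in CG1677, 93 bp in tara, 55 bp in NFAT and 61 bp in Svil, counted along the plus strand. The NFAT window held 2 forkhead matches beside 2 GATA matches.
CG1677 forkhead-containing: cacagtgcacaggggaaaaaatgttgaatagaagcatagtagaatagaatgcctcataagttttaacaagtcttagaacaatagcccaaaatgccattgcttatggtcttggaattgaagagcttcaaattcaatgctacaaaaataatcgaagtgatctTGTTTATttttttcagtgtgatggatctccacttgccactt
Tlk forkhead-containing: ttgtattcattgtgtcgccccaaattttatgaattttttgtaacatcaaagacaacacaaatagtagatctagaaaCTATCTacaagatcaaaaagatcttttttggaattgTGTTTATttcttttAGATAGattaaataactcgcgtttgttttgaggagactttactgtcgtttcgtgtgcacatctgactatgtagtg
tara forkhead-containing: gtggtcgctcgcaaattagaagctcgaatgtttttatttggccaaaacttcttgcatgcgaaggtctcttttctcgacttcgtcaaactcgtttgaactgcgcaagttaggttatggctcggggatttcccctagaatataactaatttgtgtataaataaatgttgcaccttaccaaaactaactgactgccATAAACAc
NFAT forkhead-containing: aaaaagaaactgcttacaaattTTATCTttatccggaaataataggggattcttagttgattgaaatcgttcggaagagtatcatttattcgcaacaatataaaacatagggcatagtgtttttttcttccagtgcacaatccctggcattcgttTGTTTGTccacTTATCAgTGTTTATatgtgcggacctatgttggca
Svil forkhead-containing: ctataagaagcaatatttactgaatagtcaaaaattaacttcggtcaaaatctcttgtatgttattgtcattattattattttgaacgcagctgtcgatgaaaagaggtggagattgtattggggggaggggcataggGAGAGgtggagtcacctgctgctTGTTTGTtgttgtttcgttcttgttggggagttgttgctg

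Together the 6 genes held 56 thresholded summits. Every one of the 56 lay in an intron of the host's longest transcript. The number classed as coding sequence or UTR was 0, but only summits over 500 bp from a protein-coding TSS could get those classes. By distance to protein-coding TSSs, 8 lay within 500 bp of one and are called promoter summits here, while 48 (85.7%) were intronic and farther away. Over all 4599 thresholded summits 25.2% were of that intronic kind, and the genes were listed for intronic peaks, so nothing is read from the excess. Of the 48, 39 lay over 1000 bp from any protein-coding TSS. The median distance of the 56 to the nearest protein-coding TSS was 1990 bp, and to a TSS of the host gene itself 5787 bp. For all 1161 intronic thresholded summits, a set without promoter summits, the median to the nearest protein-coding TSS was 2348 bp.

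The summits were gathered in single introns. In 5 of the 6 genes every thresholded summit lay in the longest intron of the longest transcript, 48 of 48 summits. Most pooled entries, thresholded ones included, lay there too: 49 of 53 in CG1677, 33 of 36 in Tlk and 38 of 43 in tara. In NFAT it was 20 of 25 and in sbb 53 of 59. That intron took up 59.3% of the length of CG1677, 86.0% of Tlk, 87.5% of tara, 59.7% of NFAT and 83.0% of sbb, and it was intron 1 or intron 2 in each. Svil was the exception, with 1 of its 8 summits in its longest intron, which covers 23.1% of the gene. Among the other 16 genes with 7 or more summits, 5 had all of them in the longest intron (ush, HmgD, HmgZ, Mi-2 and simj), and HmgD and HmgZ overlap and share summits. The difference between 5 of 6 and 5 of 16 was not tested, since the 6 were listed for this kind of peak.

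**Figure D1:**
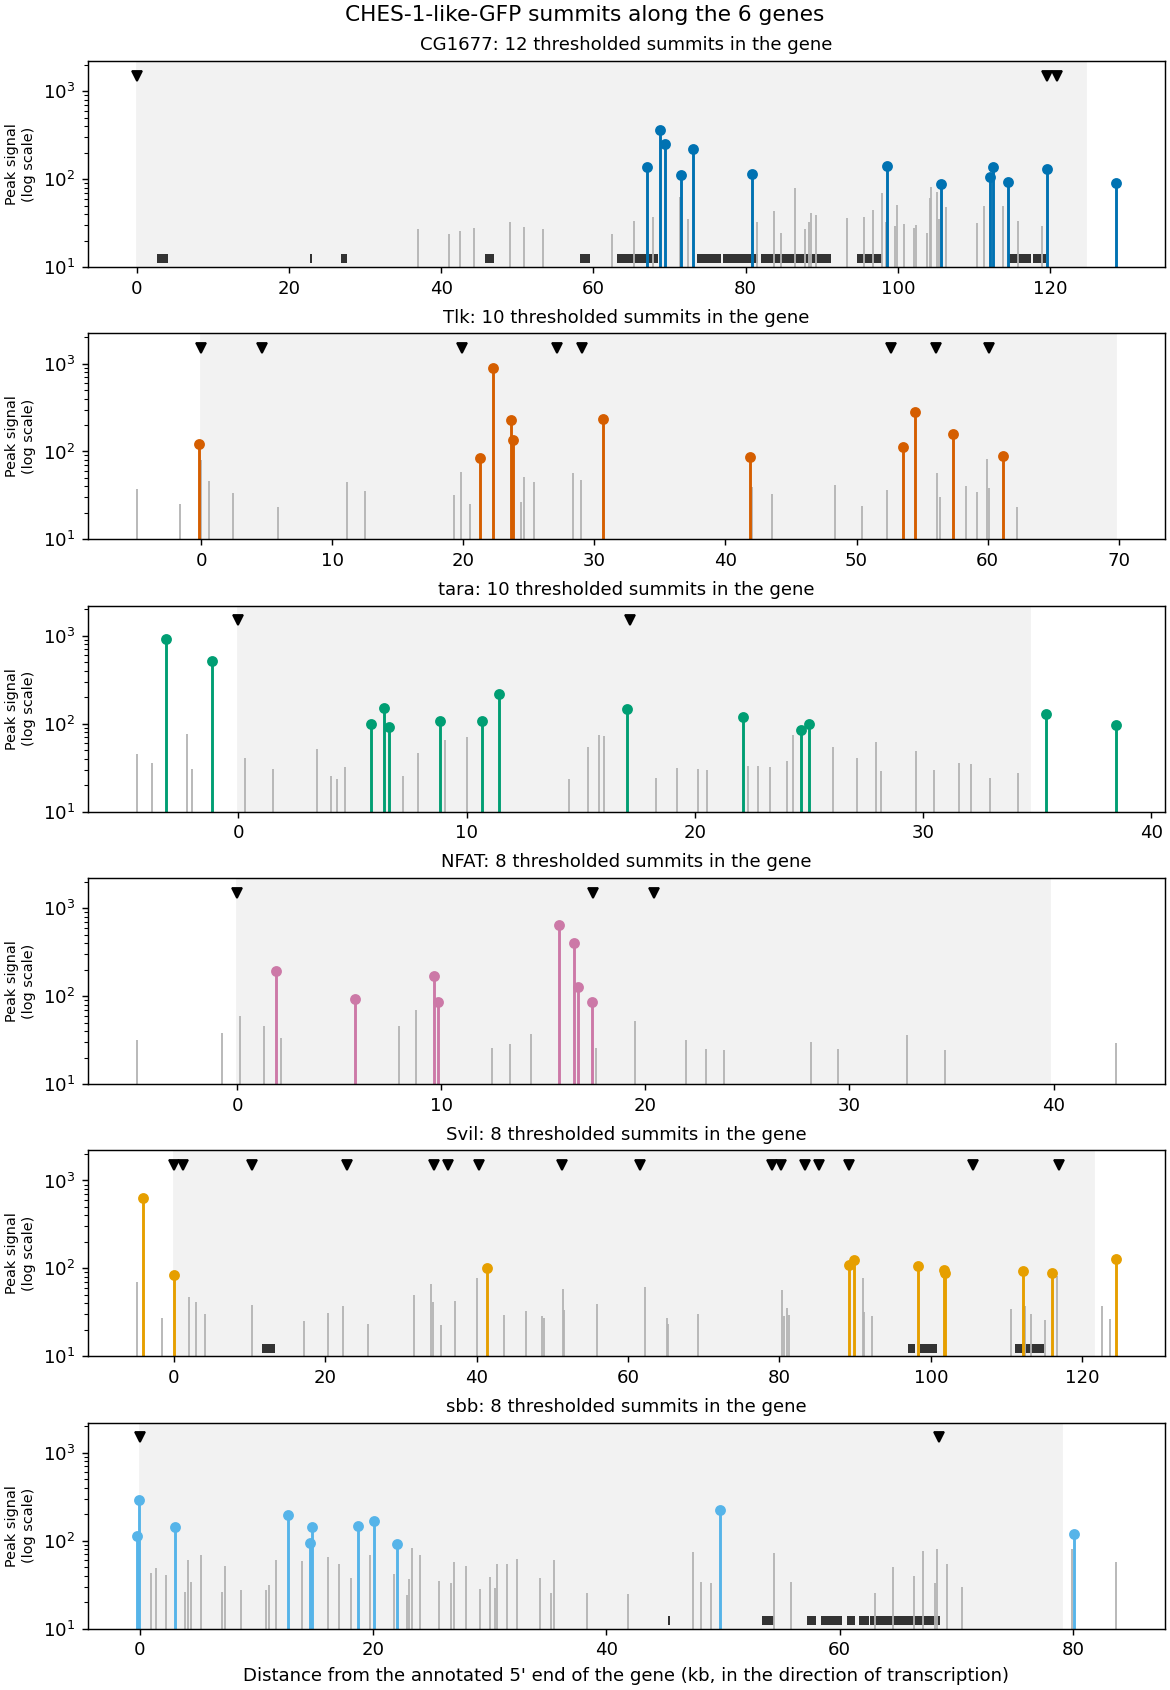
Each panel shows 1 gene with distance in kb from its annotated 5' end along the x axis and the authors' peak signal on a log y axis. Coloured stems with dots are thresholded summits in the gene (grey background) or within 5 kb of it, thin grey stems are pooled entries below the threshold, black triangles are TSSs of the gene and black blocks are nested protein-coding genes. The 12 summits of CG1677 stand between 67.0 and 119.6 kb from its 5' end among nested genes, and the 8 inside Svil have signals of 89.2 to 126, below the peak of 640 upstream of that gene.

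CG1677 (FBgn0029941) spans 124709 bp on the minus strand, chrX:7281089-7405797, and held the most summits of the 6 genes, 12. Only transcript FBtr0303415 has that length. The other 3 transcripts are 3789 to 5107 bp long and held 0 thresholded summits and 0 pooled entries, so the count of CG1677 rests on a single annotated transcript. Its intron 2, 73902 bp long, contained all 12. The gene also encloses 13 protein-coding genes and lies inside the annotated span of the long noncoding RNA lncRNA:CR44357.

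The nearest protein-coding TSS belonged to a nested gene for 11 of the 12 summits of CG1677. The strongest peak (7337095, signal 364, rank 258) stood 257 bp upstream of CBP, and was matched in both replicates, at ranks 217 and 344. A weaker neighbour (7336343, signal 248, rank 625) ranked 506 and 966 in the replicates. The one at 7332752 had a signal of 219 and stood 561 bp upstream of CG42780. These 3 had the best ranks among the 12 summits in both replicates. At 67 bp upstream of unc-119, the fly relative of a Caenorhabditis elegans gene needed in the nervous system, the signal was 92.5 (rank 3946). Summits stood 760 and 7810 bp from the TSS of brk (brinker, the repressor of Dpp target genes), with signals of 142 and 88.7. Another stood 784 bp inside Dok, which encodes an adaptor protein, with a signal of 114.5.

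The only summit nearest a TSS of CG1677 itself (7286239, signal 132, rank 2235) stood 44 bp upstream of the start that 2 of its short transcripts use. It was also 119 bp from the TSS of CG2059, which runs the other way, so the peak cannot be assigned to either. The start of the long transcript, at 7405797, had no pooled entry within 500 bp, and no thresholded summit lay within 67.0 kb of it inside the gene. Atg5, an autophagy gene, and Acsf3, CheA7a, CG15034, CG15035, CG1999 and CG42781 had no pooled entry within 500 bp of their TSSs.

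Tlk (FBgn0283657; chrX:3720007-3789770, plus strand) held 10 summits, all in its intron 2 of 60007 bp. It has 14 transcripts from 8 TSSs and no nested protein-coding gene. No summit inside the gene lay within 500 bp of any of the 8 TSSs. The peak at its first TSS stood just outside, 172 bp upstream, with a signal of 122 (rank 2552, and 2235 and 3941 in the replicates).

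The strongest peak in any of the 6 genes lay in this intron. At 3742236 the signal was 882 and the rank 33, and the matched entries ranked 34 in replicate 2 and 34 in replicate 3. It stood 2339 bp downstream of the nearest Tlk TSS. The other Tlk peaks were weaker, with signals of 279 at 3774476, 236 at 3750687, 229 at 3743615 and 159 at 3777372, and the remaining 5 between 84.9 and 135. The summit at 3777372 lay 10 bp from the start of mir-4962, a microRNA gene in the same intron. The summit farthest from any TSS, 10782 bp, had a signal of 87.4. All 10 were matched in both replicates.

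The gene tara (FBgn0040071; chr3R:16225651-16260329, plus strand) is the shortest of the 6, at 34679 bp, and the most densely covered, with 2.88 thresholded summits per 10 kb. All 10 summits lay in the only intron of its longest transcript, 30338 bp. One of them marked the alternative start: it stood 123 bp upstream of the second TSS, with a signal of 147 and a rank of 1796. At the first TSS the strongest pooled entry within 500 bp had a signal of 41.1 and a rank of 12939, below the threshold. The strongest summit in the gene was at 16237055, with a signal of 219 (rank 809, and 1275 and 575 in the replicates).

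The strongest peaks of the tara locus were not in the gene. The 5 kb upstream of it held a summit at 16222470 with a signal of 917, ranked 32 (32 and 36 in the replicates). It also held one at 16224502 with a signal of 514, ranked 112 (84 and 197). They stood 3181 and 1149 bp from the first tara TSS. Each was closer to an annotated start of lncRNA:CR45643, at 925 and 902 bp, though not the same start. The nearest annotated start was thus a noncoding one for both. Downstream, a summit with a signal of 96.7 stood 17 bp from the TSS of the neighbour bor, which encodes an ATPase. In the gene, 7 of the 10 summits were matched in both replicates, the lowest share among the 6 genes, next to 6 of 8 in Svil. The pair at 16232035 and 16232236 corresponded to 1 entry in replicate 2 and 1 in replicate 3.

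NFAT (FBgn0030505; chrX:13624745-13664568, plus strand) held 8 summits within 15.5 kb, all in intron 1 of 23787 bp. The strongest, at 13640515, had a signal of 649 and a rank of 69 (71 and 59 in the replicates). Its neighbour at 13641243 had a signal of 407 and a rank of 189 (203 and 227). Both lie upstream of the second of the 3 TSSs of NFAT, at 1660 and 932 bp. The peak at that second TSS itself, 21 bp away, was weak, with a signal of 86.4 and a rank of 4404. It ranked 3041 in replicate 2 and 9756 in replicate 3. The first TSS had only a pooled entry below the threshold (signal 59.6, rank 7499), and the third had none within 500 bp. NFAT has no nested gene and no thresholded summit in either 5 kb flank, and all 8 summits were matched in both replicates.

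Svil (FBgn0266696; chr3L:2377655-2499226, plus strand) had the weakest peaks, with signals of 89.2 to 126 and a best rank of 2423, so none was in the upper 50% of the thresholded list. Its 8 summits were spread over intron 2 (1 summit), intron 11 (5) and intron 13 (2) of a transcript with 18 introns. The gene has 31 transcripts from 16 TSSs, of which 1 had a thresholded summit inside the gene within 500 bp (2466771, 90 bp away, signal 110). The summit at the first TSS lay 20 bp outside the gene and was the weakest peak of the whole thresholded list, signal 84.2 and rank 4599.

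Nested genes accounted for 4 of the 8 nearest starts in Svil. A summit with a signal of 107 stood 400 bp from CG16762 and one with a signal of 93.4 stood 384 bp from a TSS of CG1146. A close pair with signals of 96.1 and 89.2 stood 918 and 1118 bp from Cyp4d20, a cytochrome P450 gene. Replicate 3 ranked the Svil summits lower than replicate 2: the 6 matched in both ranked from 2200 to 3550 in replicate 2 and from 2870 to 13542 in replicate 3, where each of the 6 had the lower place. In contrast, the peak 4015 bp upstream, 38 bp from the TSS of the mitochondrial ribosomal protein gene mRpL23, had a signal of 640 (rank 71, and 79 and 56 in the replicates).

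The gene sbb (FBgn0285917; chr2R:18278198-18357296, minus strand) held 8 summits, all in intron 2 of 65649 bp and none within 500 bp of a TSS. They stood 3055 to 22027 bp from a start of sbb. The strongest inside the gene were at 18307577 (signal 225, rank 758), 18344574 (signal 198, rank 1013) and 18337202 (signal 168, rank 1398). The start of sbb was marked too, just outside the gene body. There the summit 67 bp upstream had a signal of 287 and a rank of 464 (499 and 389 in the replicates), above every summit inside. A second, 267 bp upstream, had a signal of 114.8 and a rank of 2813, with unlike ranks in the replicates (10047 in replicate 2 and 2599 in replicate 3). Whether these 2 summits are separate binding sites was not tested. The gene encloses 8 protein-coding genes, yet the nearest start was a nested one for 1 summit only, CG14505 at 3600 bp. Downstream, a summit with a signal of 119 stood 4 bp from the TSS of Ote, which encodes the inner nuclear membrane protein Otefin. All 8 summits were matched in both replicates.

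Across the 6 genes the nearest protein-coding TSS was the host's own for 40 summits and a nested gene's for 16. Of the 16, 11 were in CG1677, 4 in Svil and 1 in sbb. Of the 34 annotated TSSs of the 6 genes, 7 (20.6%) had a thresholded summit within 500 bp, flanks included, against 23.7% of all 19630 TSSs of protein-coding genes. A pooled entry stood within 500 bp of 22 of them (64.7%), against 56.2% of all, so both shares were near the background. Every gene had at least 1 marked TSS. In the 5 kb flanks stood 12 more summits, 7 upstream and 5 downstream, which brings the 6 loci to 68.

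**Figure D2:**
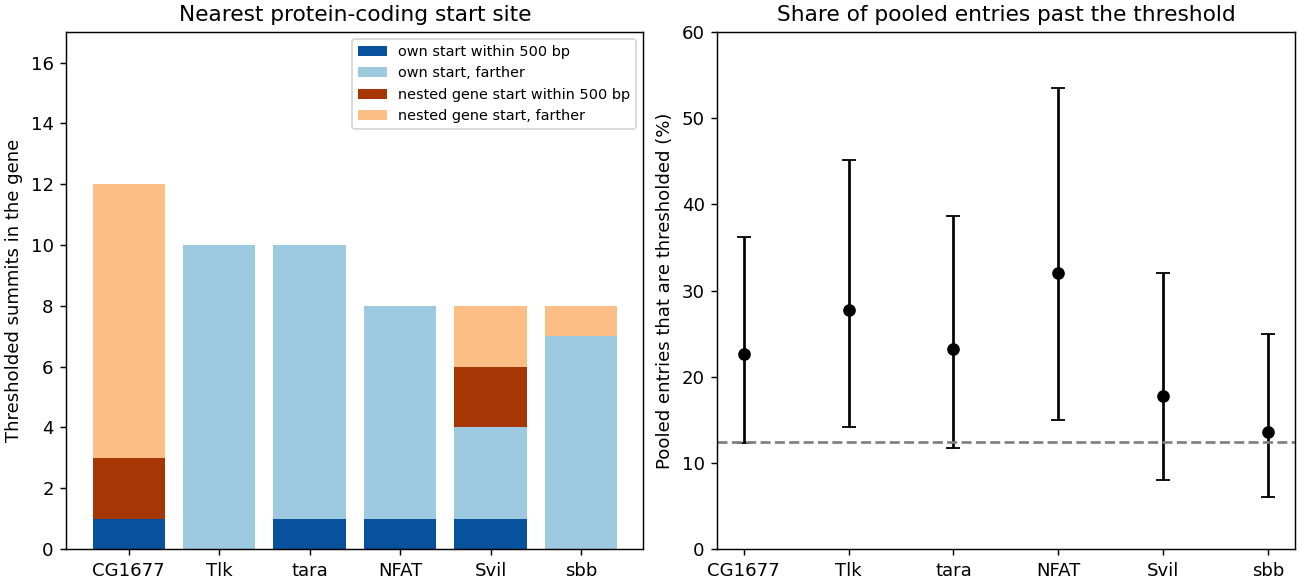
The left panel stacks the thresholded summits of each gene by whose protein-coding TSS is nearest and whether it lies within 500 bp, and the right panel gives the share of each gene's pooled entries that are thresholded, in percent, with exact 95% intervals. The dashed line is the 12.4% of all pooled entries inside protein-coding genes. CG1677 is the only gene in which nested starts are the nearest for most summits. The shares run from 13.6% in sbb to 32.0% in NFAT, and their numerators are the counts that chose the genes.

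The lists called before thresholding also covered the 6 genes. The pooled list had 261 entries in the 6 genes, replicate 2 had 248 and replicate 3 had 251, and the 5 kb flanks held 27, 24 and 31. Of the 205 pooled entries below the threshold 77.1% were intronic and over 500 bp from a TSS, against 9826 of all 25401 sub-threshold entries. The genes were listed for intronic peaks, so nothing is read from this difference. Another 12 (5.85%) were classed as coding sequence, against 0 thresholded summits. That class held 3030 of all 25401 sub-threshold entries and 12 of all 4599 thresholded summits (0.261%), so nothing is read from the 0. The genes' longest introns held 207 of the 261 pooled entries. The share of pooled entries that passed the threshold was 21.5% (exact 95% interval 16.6 to 26.9%, counting error only), against 15.3% over the whole pooled list and 12.4% inside protein-coding genes. Because the genes were chosen by the count of thresholded summits, that share had to be high.

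Between genes, the share ran from 32.0% in NFAT (8 of 25, 14.9 to 53.5%) and 27.8% in Tlk (10 of 36, 14.2 to 45.2%) down to 17.8% in Svil (8 of 45, 8.0 to 32.1%) and 13.6% in sbb (8 of 59, 6.04 to 25.0%). CG1677 had 22.6% (12 of 53, 12.3 to 36.2%) and tara 23.3% (10 of 43, 11.8 to 38.6%). The intervals overlap, and no order among the genes is read from them. sbb had the most sub-threshold pooled entries with a q-value under 0.05, 19 of 51, against 2 of 17 in NFAT. Over the 6 genes 47 of 205 sub-threshold entries (22.9%) had such a q-value, against 17.4% of all sub-threshold pooled entries, a difference that was not tested.

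In strength the 56 summits spanned the thresholded list. Their median signal was 123, against 130 for all thresholded peaks and 125 for the 1161 intronic ones. They included 2 of the 100 strongest peaks, in Tlk and NFAT. Of the 56, 11 ranked among the first 919 and 16 among the last 919. Each of these ends holds 919 of all 4599 thresholded peaks, and the counts were not tested against that share. The widths were uniform, since 47 of the 56 regions were 430 bp wide, as were 3810 of all 4599.

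Both replicates held an entry within 100 bp for 50 of the 56 summits (89.3%), and over all thresholded summits 94% were matched in this way. Of the other 6, 3 were matched in replicate 2 only, 2 in replicate 3 only and 1 in neither. A stricter count asks that both matches rank among the 4599 strongest entries of their replicate. It kept 33 of 56 (58.9%), against 69.4% of all thresholded summits. By gene the 33 were 9 in CG1677, 7 in Tlk, 6 in sbb, 5 in tara, 5 in NFAT and 1 in Svil. Of the 50 matched in both, 32 had the better rank in replicate 2.

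**Figure D3:**
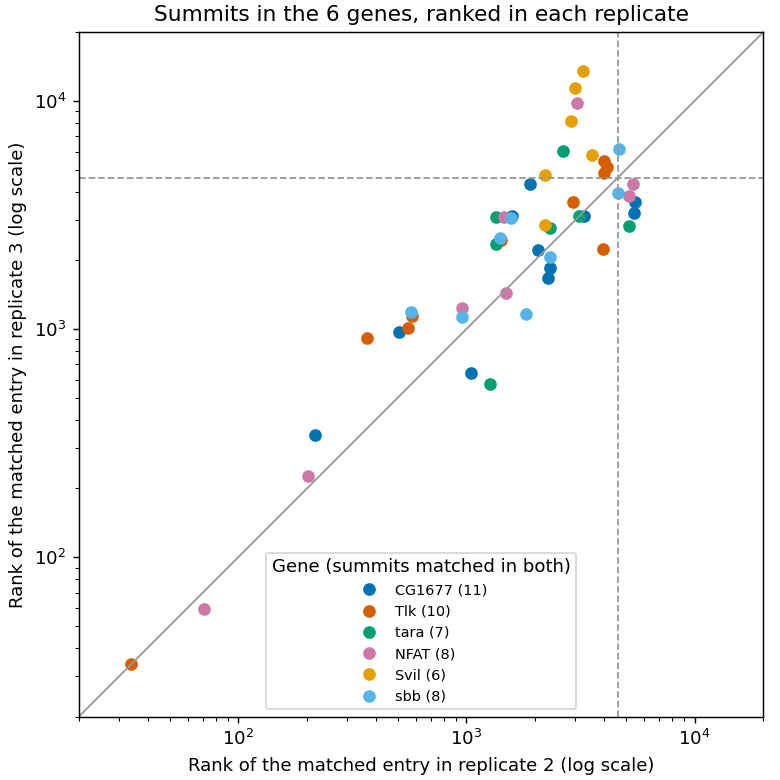
Each of the 50 summits matched in both replicates is placed by the rank of its entry in replicate 2 (x) and replicate 3 (y), both on log axes, coloured by gene. The solid line marks equal ranks and the dashed lines rank 4599. The strongest Tlk and NFAT peaks lie on or near the line of equal ranks, and the 6 Svil summits all lie above it.

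Some summits stood in close pairs. In 6 cases neighbouring summits in a gene were within 250 bp, 2 in NFAT and 1 each in Tlk, tara, Svil and sbb, with gaps of 199 to 211 bp. Over the whole thresholded list 5.18% of neighbouring summits were within 250 bp, against 6 of 50 pairs (12%) here. Close pairs raise the count that chose the genes, so nothing is read from this difference. In that list no gap was under 199 bp, and 238 of the 260 gaps up to 500 bp were at most 250 bp, so the pairs stand at the shortest spacing the list holds. The settings of the peak caller are unknown, and their part in this spacing was not tested. In 4 of the 6 pairs each replicate had 2 entries of its own. Counted as clusters of summits within 500 bp, the 56 made 48. Whether such pairs are separate binding sites was not tested, and the pair counts are counts of list entries.

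The 6 genes are long, and most long genes had no peak. Of 13968 protein-coding genes, 557 are at least as long as tara, with length ranks of 53 for CG1677, 58 for Svil, 143 for sbb, 181 for Tlk, 470 for NFAT and 557 for tara. Among these 557, 11 genes (1.97%) had 8 or more thresholded summits, 316 had 0, and the 90th percentile was 4. Their mean was 0.164 summits per 10 kb. Set against that, tara had 2.88 per 10 kb, NFAT 2.01, Tlk 1.43, sbb 1.01, CG1677 0.962 and Svil 0.658, which placed them 1st, 4th, 9th, 20th, 22nd and 49th by density among the 557. These densities follow from the count that chose the genes.

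**Figure D4:**
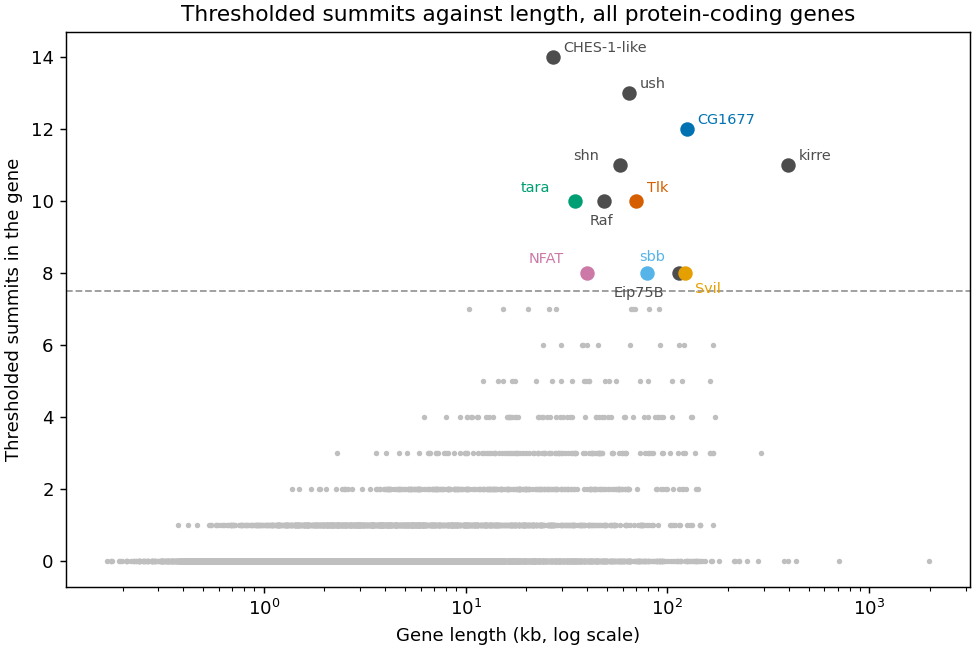
Every protein-coding gene is placed by its length in kb (log x axis) and its number of thresholded summits (y). The 12 genes at or above 8, over the dashed line, are named, with the 6 described here in colour and the others in dark grey. The 6 lie between 34679 and 124709 bp, where most genes have 0 summits.

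Next to the limit of 8 the counts are close. NFAT, Svil and sbb had exactly 8, as did Eip75B, and 10 genes had 7: HmgD, HmgZ, Hr4, Mi-2, RapGAP1, Su(Tpl), bun, mam, px and simj. HmgD and HmgZ overlap, as do Mi-2 and Su(Tpl), so their summits are partly the same. The other genes at or above 8 were CHES-1-like with 14, ush with 13, kirre and shn with 11 each and Raf with 10. By count and then by intronic share, Raf (10 summits, 90.0% intronic) was level with tara and, together with tara, came closest to Tlk (10 summits, 100%). Eip75B was level with NFAT (both 8 summits, 87.5% intronic), and this pair came closest to Svil (62.5%) and sbb (100%). The nearest to CG1677 (12 summits, 75.0% intronic) was kirre (11 summits, 72.7%).

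Sequence matches at the 48 intronic summits were set beside those at all 1161 intronic thresholded summits. Within 100 bp of the summit and on either strand, 16 of 48 windows (33.3%, exact 95% interval 20.4 to 48.4%) held a forkhead site, against 33.4% of the 1161. The same letters in reversed order (ACAAA followed by a pyrimidine and then a purine) serve as a control of equal base composition, which overlaps the site in part. They were in 20.8% (10.5 to 35.0%) against 30.7%. GATA sites were in 39.6% against 39.9%, GAGAG in 25.0% against 28.2% and the Zelda site CAGGTAG in 2.08% against 1.12%. The promoter elements DRE (TATCGATA) and the Motif 1 core (GGTCACACT) were in 0 of 48 windows, which allows up to 7.40%, and in 0.345% and 0.0861% of the 1161. Over all 4599 thresholded summits, promoters included, those elements were in 6.76% and 4.26%. By gene, forkhead matches were in 4 of 8 windows of sbb, 3 of 5 of Svil, 3 of 10 of Tlk, 2 of 9 of CG1677, 2 of 9 of tara and 2 of 7 of NFAT. The reversed control was in 1, 2, 2, 2, 0 and 3 of these windows, in the same order of genes. Median GC content was 39.6% in the 48 windows and 37.3% in the 1161. It was highest in tara (46.3%) and lowest in CG1677 (33.3%).

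For 5 of the genes, all but CG1677, a list of possible pathway partners or family relatives was looked at for the same kind of peak. Over all protein-coding genes, 13.5% (1879 of 13968) had a thresholded summit inside and 25.9% (3624) had one within 500 bp of a TSS. For Tlk, 4 chromatin assembly genes (asf1 and the Caf1 genes) had 0 of 4 with a summit inside, while 4 of 4 had one within 500 bp of a TSS, with a signal of 165 for asf1 and of 89.3 to 175 for the Caf1 genes. Asf1 is the substrate of the kinase, and the Caf1 genes encode histone chaperone subunits. For NFAT, the list held 6 genes, those of calcineurin, the phosphatase that acts on most vertebrate NFAT proteins, and its regulator sra. Whether calcineurin acts on the fly NFAT was not tested. Of the 6, 1 had a summit inside (CanA-14F, 97.8). At a TSS only sra had one (195), and CanA1, Pp2B-14D, CanB and CanB2 had neither.

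For sbb, 4 of 5 corepressor and partner genes had a summit inside, set beside 13.5% of all protein-coding genes. Within 500 bp of a TSS it was 2 of 5, set beside 25.9%. Gug, which encodes Atrophin, held 3 (strongest 414), all intronic, CtBP 3 (strongest 158), all intronic, gro 2 (strongest 550), both at a TSS, HDAC1 1 (103) and tll 0. For tara, 3 of 6 trithorax group genes had one inside: kis held 6 (strongest 193), osa 4 (strongest 781) and trx 1 (334). Within 500 bp of a TSS the count was 4 of 6, set beside the same 25.9% of all genes, with brm (184) and mor (134) marked there and ash1 without a summit of either kind. For Svil, the villin and gelsolin relative fliI had a summit (235) and Gel and qua had none. None of these partner genes reached 8, and kis came nearest. Partner gene lengths ran from 1505 bp (asf1) to 40089 bp (kis), against a median of 2164.5 bp over all protein-coding genes. Length was not taken into account in these counts, so no enrichment is read from them.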

How the data were processed

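CHES-1-like-GFP ChIP-seq peak lists of 1 group (biological replicates 2 and 3, separate biosamples of the same line) were used: 1 list per replicate, 1 pooled and 1 thresholded list on dm6. Per the deposited file manifests, each replicate list was derived from that replicate's alignments and a control, the pooled list from both, and the thresholded list from those by the irreproducible discovery rate procedure. For the aligner, the peak caller and the limit, names and settings were not given in the sources used here. Each entry has a signal value and a −log10 q-value as deposited by the authors, and a summit position. Signal was used only within a list. The dm3 lists and the control were left out. Depth is unknown, since the lists carry no read numbers.

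Summits were placed on Ensembl annotation release 115 and the RefSeq Release 6 genome, after arm lengths had been compared with the peaks. Replicate entries were matched within 100 bp. Each summit got the first class that fitted, from promoter (at most 500 bp from a protein-coding TSS) through 5' UTR, coding sequence, 3' UTR, exons of other kinds and intron, and introns were numbered on the longest transcript. With 1 group there is no comparison of conditions and no p-value. Shares carry exact Clopper-Pearson 95% intervals over entries, which cover counting error only and treat neighbouring entries as independent. The genes, partner lists, motifs and likeness rule were chosen with earlier results of these data known. The named genes are the 6, genes nested in them or with a TSS near their summits, other genes with 7 or more summits, the partners and the genes most like each by count and then intronic share. The choice of sequences shown, the longest-intron comparison and 2 alternatives were added after the data had been seen. Counting was tested on simulated summits, and matching on summits moved by less than the matching distance. Classing was tested on annotated TSSs and coding positions only. The intron class and false matches were not tested. Scripts ran under Python 3.11.15 with pandas 2.3.3, numpy 2.4.6, scipy 1.17.1 and, for plots, matplotlib 3.10.9.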

Additional observations from a re-analysis of the deposited data

How the results depend on the processing

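The total of 56 summits in the 6 genes was 53 to 56 when the 4599 strongest entries of a single replicate were used, 50 with summits matched in both replicates, 68 with 5 kb flanks, 59 with peak overlap and 48 with summits within 500 bp merged. It fell to 26 in the stronger part of the thresholded list (its upper 50% by signal) and was 103 with pooled entries at a q-value under 0.05. It was 37 without the longest transcript of each gene, which left CG1677 with 0 and tara with 3. Promoter summits numbered 5 with a 250 bp window and 17 with 1000 bp, in place of 8, and 9 with noncoding TSSs. Intronic summits numbered 23 in the stronger part of the list, in place of 48, and 43 with either replicate alone. The 12 genes at 8 or more became 12 to 13 with 1 replicate, 9 with merged summits (CG1677, Tlk and tara of the 6), 30 with 5 kb flanks and 2 in the stronger part of the list, none of them among the 6. Without replicate 2, Tlk had 7 and Svil 6, and without replicate 3, NFAT had 6 and Svil 7, each under the limit of 8. Matches in both replicates numbered 40 within 50 bp and 56 within 200 bp. Forkhead matches ran from 14.6% (50 bp) to 72.9% (250 bp) of windows, against 19.6% and 61.1% of all intronic summits. The reversed control ran from 10.4% to 66.7%, against 17.2% and 58.1%. The cause of these shifts was not tested, beyond the shorter or longer lists and spans that the alternatives use. No paired analysis was possible because the values come from peak lists of 1 group and no test was made. The unknown depth limits what can be said of entries missing from a replicate list.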
